A study of Mus musculus with 12 samples.

Results

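Cxcl13 and 8 further genes of the homeostatic chemokine system were followed through ear skin to which imiquimod was applied, with or without a nuclear receptor agonist. The 9 genes are the ligands Cxcl13, Cxcl12, Cxcl14, Cxcl16, Ccl19, Ccl27a and Cx3cl1 and the receptors Cxcr5 and Ccr7. They were chosen by symbol, and each symbol matched 1 Ensembl identifier among the 55416 genes of every deposited table. Cxcl13 was chosen because its reads were higher with imiquimod and higher again with both drugs, so its values in those 3 contrasts are a description and carry no test.

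The study measured bulk mRNA in ear skin of C57BL/6 mice aged 8 to 12 weeks on day 6, in 12 libraries that form 4 groups of 3. UTX_Veh is the group whose label names the vehicle but no imiquimod, and the labels do not spell out UTX. IMQ_Veh, IMQ_GW3965 and IMQ_Troglitazone all had imiquimod, an activator of Toll-like receptor 7, as 20.8 mg of Aldara cream (5% imiquimod) put on the dorsal side of the ears each day, with tissue taken 1 day after the last dose. From day 3 mice of the drug groups also had a daily intraperitoneal injection. It was the LXR (liver X receptor) agonist GW3965 at 20 mg/kg or the PPARγ agonist troglitazone at 150 mg/kg. The vehicle was DMSO, and its first day of injection is not recorded here for UTX_Veh and IMQ_Veh. The labels name no genetic change in any group. Whether the 3 libraries of each group came from separate animals is not stated, so p-values measure the spread between libraries, which may be partly technical.

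Homeostatic chemokines are secreted or membrane-bound guide signals that place lymphocytes, dendritic cells and precursors in resting tissue. CXCL13 acts on CXCR5 and draws B cells and follicular helper T cells into lymphoid follicles, while CCL19 acts on CCR7 and draws naive T cells and mature dendritic cells towards lymph nodes. In skin, CCL27 from keratinocytes attracts T cells through CCR10, CXCL12 from stroma acts through CXCR4, CX3CL1 and CXCL16 are displayed on membranes and shed by ADAM proteases, and CXCL14 is made constitutively by the epidermis.

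Total expected counts per library lay between 18242074 and 25641602. In IMQ_GW3965 replicate 3 the feature ENSMUSG00000119584 took 11.6% of all counts, against 0.0454% to 0.138% elsewhere. IMQ_Veh replicate 3 held 0.525% of its counts in 10 skeletal muscle markers, against 0.130% and 0.142% in the other libraries of its group. Keratinocyte markers, the defining genes of the labelled tissue, took 2.59% to 6.80% of the counts of every library. The drug check gene Srebf1, a direct target of LXR, stood at 263, 255 and 239 CPM (read counts scaled to library size) in UTX_Veh. In IMQ_Veh it stood at 131 ± 25.4 CPM (SD, n = 3). It rose to 308 ± 41.3 CPM with GW3965 and to 194 ± 23.5 CPM with troglitazone (log2 fold changes 1.23 and 0.57, edgeR quasi-likelihood test, Benjamini-Hochberg adjusted p = 0.00276 and 0.0347). Drug action on the gene was not tested apart from a return towards its UTX_Veh level. The second call was lost without 1 library in 7 of the 12 possible fits, namely each UTX_Veh library, each IMQ_Troglitazone library and IMQ_Veh replicate 1, where its log2 fold change lay between 0.46 and 0.65. Of the 12 drug check genes 1 rose and 7 fell with imiquimod, 5 rose with GW3965 (2 and 3 without IMQ_GW3965 replicates 1 and 3) and 3 with troglitazone (7 without IMQ_Veh replicate 3, 1 without IMQ_Veh replicate 1 or IMQ_Troglitazone replicates 1 or 3). Over all tested genes 61.9% were called with imiquimod, 6.59% with GW3965 and 9.34% with troglitazone. Angptl4, a PPAR target, was not past the threshold with either drug. Cd36, another drug check gene, rose by 1.34 on the log2 scale with troglitazone (edgeR, adjusted p = 0.0126), a call that held in all 12 fits. With GW3965 Cd36 rose by 1.10 (adjusted p = 0.0244), a call lost in 2 of the 12 fits. Levels below are CPM of rounded expected counts after TMM scaling unless TPM, which are also scaled to transcript length, are named.

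Cxcl13 (ENSMUSG00000023078) lies on the plus strand of chr5:95956951-95961068 in GRCm38. The RefSeq promoter table of build GRCm38.p6 held 6 of the 9 genes, all but Cxcr5, Cxcl16 and Ccr7. The 250 bases before the RefSeq start are shown for Cxcl13 and for Ccl19, the other lymphoid-organ chemokine. They were chosen because both are classed as targets of the lymphotoxin and non-canonical NF-κB pathway, whose genes are described further on. Capitals mark matches to a general κB pattern (GGG, then any 5 bases, then CC) or to TATAAA, each searched on both strands. The Cxcl13 window is chr5:95956689-95956938 on the plus strand and the Ccl19 window is chr4:42756366-42756615 on the minus strand, both printed 5′ to 3′ in the direction of transcription. In the GENCODE M21 annotation, used for gene positions here, Ccl19 starts at 42756577, inside this window. Most of the Ccl19 window thus lies within the gene as GENCODE places it.
Cxcl13: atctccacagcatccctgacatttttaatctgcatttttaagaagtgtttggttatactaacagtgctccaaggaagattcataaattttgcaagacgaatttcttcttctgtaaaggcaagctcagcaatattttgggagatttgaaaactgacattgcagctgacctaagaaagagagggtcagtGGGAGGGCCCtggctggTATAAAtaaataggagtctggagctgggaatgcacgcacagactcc
Ccl19: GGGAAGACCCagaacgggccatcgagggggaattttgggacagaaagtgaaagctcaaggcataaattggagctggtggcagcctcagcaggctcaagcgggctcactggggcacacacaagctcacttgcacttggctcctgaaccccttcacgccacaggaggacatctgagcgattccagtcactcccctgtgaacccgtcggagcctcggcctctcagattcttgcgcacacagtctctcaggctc

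In the Cxcl13 window the κB pattern lies at -63 to -54 from the start site and TATAAA at -46 to -41. Of 32851 windows of the same length, the κB pattern was found in 15046 (45.8%) and TATAAA in 4063 (12.4%). The Ccl19 window holds only the κB pattern, at its first bases, -250 to -241 from the RefSeq start and upstream of the GENCODE start. The LXR element, AGGTCA repeated after any 4 bases, and the PPAR element, AGGTCA repeated after any 1 base, were found in 5 windows (0.0152%) and 11 windows (0.0335%), and these letters are in neither window shown. A single AGGTCA, present in 4607 windows (14.0%), lies in the Cxcl13 window on the minus strand at -87 to -82, where it overlaps no other match. These matches describe the letters only.

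Cxcl13 was close to silent without imiquimod. The 3 UTX_Veh libraries held 2, 5 and 6 expected counts of Cxcl13, or 0.0786, 0.209 and 0.256 CPM. The IMQ_Veh libraries held 250, 158 and 167 counts, or 13.0, 6.35 and 8.76 CPM. Every imiquimod library was thus far above every library without it, and the groups did not overlap. The fitted log2 difference was 5.66 ± 0.45 (SE), from a group whose level rests on 13 counts in all.
With GW3965 the Cxcl13 libraries stood at 45.9, 63.8 and 46.6 CPM, and with troglitazone at 49.4, 27.9 and 43.9 CPM. The lowest library of either drug was above the highest IMQ_Veh library. Against IMQ_Veh the log2 difference was 2.48 ± 0.28 with GW3965, a ratio of means of 5.57, and 2.12 ± 0.28 with troglitazone, a ratio of 4.32. Both contrasts use the same 3 IMQ_Veh libraries, so their likeness is not independent evidence. Leaving out any 1 library kept the difference between 5.29 and 5.98 for imiquimod, 2.27 and 2.79 for GW3965 and 1.91 and 2.43 for troglitazone.

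The contrast between the drugs played no part in choosing Cxcl13. Its ranges overlapped, and the log2 difference of GW3965 minus troglitazone was 0.37 ± 0.26, with an interval from -0.23 to 0.96 (edgeR quasi-likelihood test, Benjamini-Hochberg adjusted p = 0.533). Of all 17130 genes tested, 1.86% were called between the drugs (1.08% higher with GW3965 and 0.782% lower), and 0 of the 8 tested chemokine genes were, with 0 at an unadjusted p under 0.05 and 0 by DESeq2 or limma-voom. The drugs differ in dose and in receptor, so the comparison is of these regimens. The deposited tables carry a field in their names, L001 or L009, that the labels do not explain. L001 held only replicate 2 of IMQ_Veh. L009 held only replicate 3 of UTX_Veh and only replicate 2 of each drug group. Every difference within a field, here and below, thus has a lone library on at least 1 side. Within L001 the Cxcl13 difference on log2(CPM + 0.5) was 3.42 for imiquimod, 2.77 for GW3965, 2.78 for troglitazone and -0.01 between the drugs, and within L009 it was 3.88, 2.53, 1.35 and 1.18. For the first 3 the groups did not overlap, so their direction within each field was fixed in advance and adds no support. The difference between the drugs did not keep its direction.

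**Figure D1:**
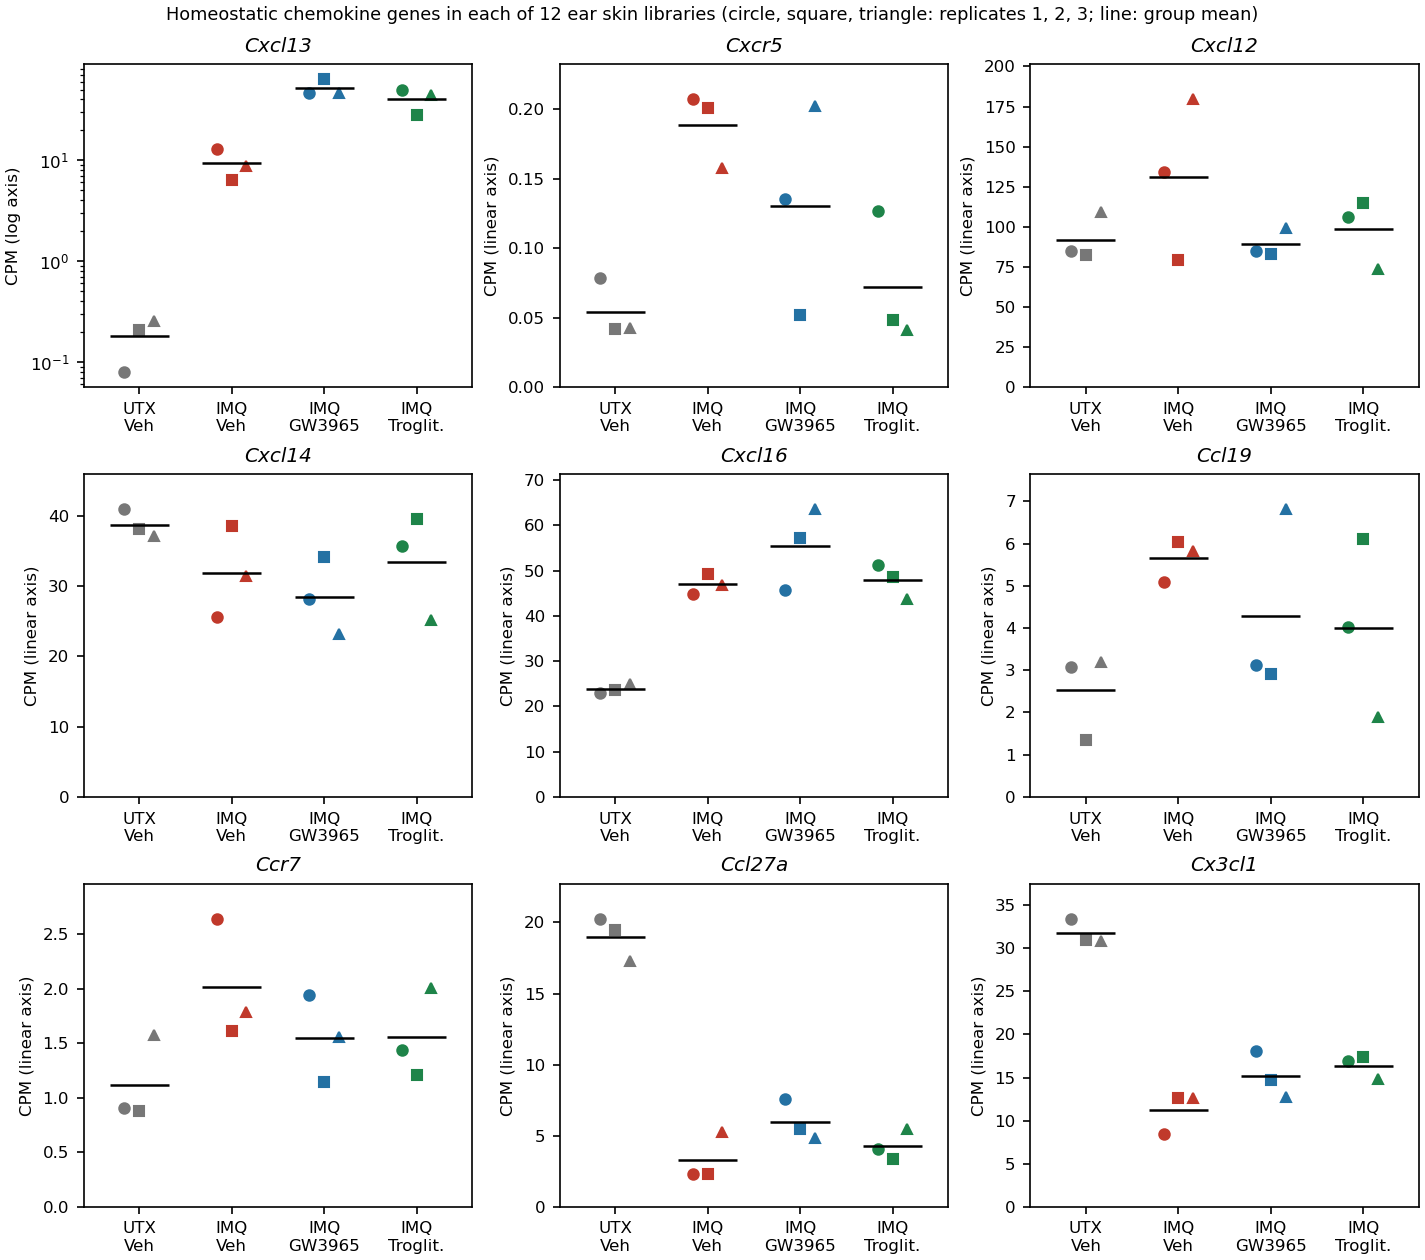
CPM of the 9 genes in each of the 12 libraries, by group, with the group mean as a line (Cxcl13 on a log axis, the others on linear axes). Cxcl13 climbs from 0.0786 to 0.256 CPM in UTX_Veh to 27.9 to 63.8 CPM in the drug groups, while Ccl27a and Cx3cl1 are highest in UTX_Veh.

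Cxcr5, the receptor of CXCL13 (minus strand, chr9:44511787-44561877), did not pass the low-count filter. It had 2, 1 and 1 expected counts in UTX_Veh, 4, 5 and 3 in IMQ_Veh, 3, 1 and 3 in IMQ_GW3965 and 3, 1 and 1 in IMQ_Troglitazone. All 12 libraries are thus within a few reads of 0, and no difference was detectable at this depth. The gene also overlaps Bcl9l on the opposite strand, which held mean expected counts of 1806 to 4661 per group, and the strand setting of the counting is not given in the sources used here.

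With imiquimod, Cxcl16 was higher and Ccl27a and Cx3cl1 lower in every fit without 1 library, while calls of Ccl19 and Ccr7 were less stable. Between IMQ_Veh and UTX_Veh 61.9% of all tested genes were called (33.0% higher and 28.9% lower). Of the 7 tested genes without Cxcl13, 5 were called, with Cxcl16, Ccl19 and Ccr7 higher and Ccl27a and Cx3cl1 lower, a share close to that over all genes. The count was 3 of 7 under upper-quartile scaling and also with the L001/L009 field (described above) as a covariate. Their median log2 fold change was 0.51, beside 0.01 over all genes. In bulk tissue, fewer cells of a type and less RNA per cell cannot be told apart. Under upper-quartile scaling the median of all genes moved by -0.12, and the calls over all genes split into 4804 higher and 5867 lower in place of 5646 and 4951.

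Cxcl16 encodes a membrane-bound ligand of CXCR6 and lies on chr11:70453983-70459984, minus strand. It stood at 23.0, 23.7 and 25.0 CPM in UTX_Veh and at 44.8, 49.2 and 46.9 CPM in IMQ_Veh. The libraries of each group lay close together and the groups were far apart. The log2 fold change was 0.98 ± 0.12 (edgeR, Benjamini-Hochberg adjusted p = 3.22e-05), and the call held without any 1 library. With GW3965 the libraries stood at 45.6, 57.2 and 63.7 CPM and with troglitazone at 51.1, 48.5 and 43.8 CPM, both overlapping IMQ_Veh. The differences from IMQ_Veh were 0.24 (interval -0.02 to 0.50, adjusted p = 0.212) and 0.03 (-0.24 to 0.29, adjusted p = 0.902). Zmynd15 overlaps Cxcl16 on the other strand, with mean expected counts of 42.7 to 94.6 per group.

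Ccl27a, the skin T cell attractant, lies on chr4:41769467-41774247, minus strand. It stood at 20.3, 19.4 and 17.3 CPM in UTX_Veh and at 2.33, 2.29 and 5.25 CPM in IMQ_Veh. Every imiquimod library was below every library without it, with IMQ_Veh replicate 3 the highest of its group. The gene fell by 2.54 ± 0.31 on the log2 scale (edgeR, Benjamini-Hochberg adjusted p = 3.79e-05), and the call held without any 1 library.
With GW3965 Ccl27a stood at 7.55, 5.46 and 4.87 CPM and with troglitazone at 4.06, 3.35 and 5.46 CPM. These values overlap IMQ_Veh only through its replicate 3. The log2 differences from IMQ_Veh were 0.87 ± 0.31 (adjusted p = 0.106) and 0.40 ± 0.31 (adjusted p = 0.431) in edgeR. Without IMQ_Veh replicate 3, the library with more muscle transcripts, they were 1.37 (adjusted p = 0.00343) and 0.90 (adjusted p = 0.0221), and the part of that library's makeup in the result was not tested. Ccl27b and Gm13306 are near-identical copies among which the counting divides reads, so the split is uncertain. The 3 genes summed gave 28.6 ± 3.54 CPM in UTX_Veh, 4.35 ± 2.79 in IMQ_Veh, 9.04 ± 1.04 with GW3965 and 5.75 ± 1.23 with troglitazone (SD, n = 3), the same order as Ccl27a alone. Il11ra1 overlaps Ccl27a on the other strand.

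Cx3cl1, whose membrane-bound product fractalkine holds cells that carry CX3CR1, lies on chr8:94772009-94782427, plus strand. It stood at 33.5, 30.9 and 30.9 CPM in UTX_Veh and at 8.46, 12.7 and 12.6 CPM in IMQ_Veh, with no overlap. The gene fell by 1.5 ± 0.16 on the log2 scale (edgeR, Benjamini-Hochberg adjusted p = 1.91e-05), a call that held without any 1 library.
With GW3965 Cx3cl1 stood at 18.04, 14.7 and 12.8 CPM and with troglitazone at 16.9, 17.4 and 14.9 CPM. All 6 drug libraries were above the highest IMQ_Veh library and all were below the lowest UTX_Veh library. The differences from IMQ_Veh were 0.43 ± 0.17 (adjusted p = 0.125) and 0.54 ± 0.16 (adjusted p = 0.0593) in edgeR, so neither passed the threshold. For troglitazone DESeq2 gave 0.55 with an adjusted p of 0.0215, and without IMQ_Veh replicate 3 edgeR gave 0.63 with an adjusted p of 0.0255.

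Ccl19 (chr4:42754525-42756577, minus strand) and its receptor Ccr7 (chr11:99144196-99155077, minus strand) were low throughout. Ccl19 stood at 3.07, 1.34 and 3.20 CPM in UTX_Veh, 5.08, 6.03 and 5.83 in IMQ_Veh, 3.12, 2.91 and 6.83 with GW3965 and 4.02, 6.11 and 1.89 with troglitazone. All IMQ_Veh libraries were above all UTX_Veh libraries, and the drug libraries spread across both ranges. The imiquimod difference was 1.15 ± 0.45 on the log2 scale (edgeR, Benjamini-Hochberg adjusted p = 0.0411). That call was lost in 8 of the 12 fits that left out 1 library (each UTX_Veh library, each IMQ_Veh library, IMQ_GW3965 replicate 2 and IMQ_Troglitazone replicate 1), with differences from 0.85 to 1.35 and adjusted p from 0.050013 to 0.137 in those fits. Against IMQ_Veh the differences were -0.42 (interval -1.43 to 0.60, adjusted p = 0.593) with GW3965 and -0.50 (-1.51 to 0.51, adjusted p = 0.478) with troglitazone.
Ccr7 stood at 0.904, 0.878 and 1.58 CPM in UTX_Veh, 2.65, 1.61 and 1.78 in IMQ_Veh, 1.94, 1.14 and 1.55 with GW3965 and 1.44, 1.21 and 2.01 with troglitazone. The lowest IMQ_Veh library was only just above the highest UTX_Veh library. The difference was 0.84 ± 0.33 (edgeR, adjusted p = 0.0425). The call was lost in 6 of the 12 fits, those without UTX_Veh replicate 1 or 2, IMQ_Veh replicate 1, IMQ_GW3965 replicate 2 or 3, or IMQ_Troglitazone replicate 1, with differences from 0.56 to 0.84 and adjusted p from 0.0515 to 0.195. Against IMQ_Veh the drug differences of Ccr7 were -0.37 (adjusted p = 0.513) and -0.36 (adjusted p = 0.488). Among 13 dendritic cell markers, of which Ccr7 is one, 3 were called higher and 3 lower with imiquimod, 1 (Cd207, of Langerhans cells; lost without IMQ_Veh replicate 1 or IMQ_GW3965 replicates 2 or 3) higher with GW3965 and none with troglitazone. Over all tested genes 61.9% were called with imiquimod, 6.59% with GW3965 and 9.34% with troglitazone. The 6 marker calls with imiquimod were 3 without IMQ_Veh replicate 1, that with GW3965 was 2 without IMQ_Troglitazone replicate 3, and 1 was called with troglitazone without IMQ_Veh replicate 3. Their summed level was 176 to 186 CPM in UTX_Veh, 225 to 261 in IMQ_Veh, 216 to 236 with GW3965 and 203 to 228 with troglitazone, and its part in the Ccr7 values was not tested.

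Cxcl12 and Cxcl14 did not pass the test in any of the 4 contrasts. Cxcl12 (chr6:117168535-117181367, plus strand), the stromal ligand of CXCR4, stood at 84.7, 82.2 and 109 CPM in UTX_Veh, 134, 79.2 and 180 in IMQ_Veh, 85.1, 83.2 and 99.0 with GW3965 and 106, 115 and 73.5 with troglitazone. The IMQ_Veh libraries spread more widely than those of any other group, and IMQ_Veh overlapped all 3. Their order is that of the summed level of 10 fibroblast markers, which was 4327, 2081 and 9592 CPM in IMQ_Veh replicates 1, 2 and 3, beside 4331 to 6976 in UTX_Veh and 2899 to 4136 in the drug groups, and the part of these transcripts in the result was not tested. The Cxcl12 difference of IMQ_Veh from UTX_Veh was 0.51 ± 0.25 (edgeR, Benjamini-Hochberg adjusted p = 0.0962), and 0.73 (adjusted p = 0.00791) without IMQ_Veh replicate 2. GW3965 minus IMQ_Veh was -0.56 ± 0.25 (adjusted p = 0.189), and -0.81 (adjusted p = 0.0419) without that library. Troglitazone minus IMQ_Veh was -0.41 (adjusted p = 0.302).
Cxcl14 (chr13:56288643-56296551, minus strand), the epidermal ligand, ranged from 23.2 to 41.0 CPM over all libraries. It stood at 41.0, 38.2 and 37.1 CPM in UTX_Veh, 25.7, 38.5 and 31.4 in IMQ_Veh, 28.2, 34.2 and 23.2 with GW3965 and 35.7, 39.6 and 25.2 with troglitazone. All groups overlapped their neighbours in order of mean. The differences were -0.28 (interval -0.72 to 0.16, adjusted p = 0.214) with imiquimod, -0.16 (-0.60 to 0.28, adjusted p = 0.641) with GW3965 and 0.07 (-0.37 to 0.51, adjusted p = 0.841) with troglitazone. On the TPM scale, which was not tested, Cxcl14 stood at 40.2 to 44.9 in UTX_Veh, above every library with imiquimod. Its values were 17.98 to 30.1 in IMQ_Veh, 14.4 to 25.9 with GW3965 and 23.0 to 37.2 with troglitazone. These TPM carry no TMM scaling. Relative to UTX_Veh, the IMQ_Veh mean of each chemokine gene past the low-count filter was lower in TPM than in CPM. The shift was thus not particular to Cxcl14, and this order alone does not show a fall of the gene.

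None of the 7 chemokine genes tested against IMQ_Veh passed the threshold with either drug, and Cxcl13 was not tested there. Over all genes 6.59% were called for GW3965 against IMQ_Veh (3.71% higher and 2.88% lower) and 9.34% for troglitazone against IMQ_Veh (4.69% higher and 4.65% lower), and 0 of 7 chemokine genes were called in each. At an unadjusted p under 0.05 there were 3 for GW3965 (Cxcl12, Ccl27a and Cx3cl1) and 1 for troglitazone (Cx3cl1). DESeq2 called 0 and 1, and limma-voom called 0 in both. The median log2 fold change of the 7 was -0.16 for GW3965 and 0.03 for troglitazone, beside -0.01 and -0.02 over all genes. Within the L001 and L009 fields, the imiquimod differences on log2(CPM + 0.5) were 1.06 and 0.86 for Cxcl16, 1.35 and 0.68 for Ccl19, 0.60 and 0.37 for Ccr7, -2.87 and -2.14 for Ccl27a and -1.31 and -1.53 for Cx3cl1. For all 5 called genes IMQ_Veh and UTX_Veh did not overlap, so their direction within each field was fixed in advance and adds no support. The Cxcl12 difference for GW3965 turned, at 0.21 and -0.90. L001 held only replicate 2 of IMQ_Veh and L009 only replicate 2 of IMQ_GW3965.

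**Figure D2:**
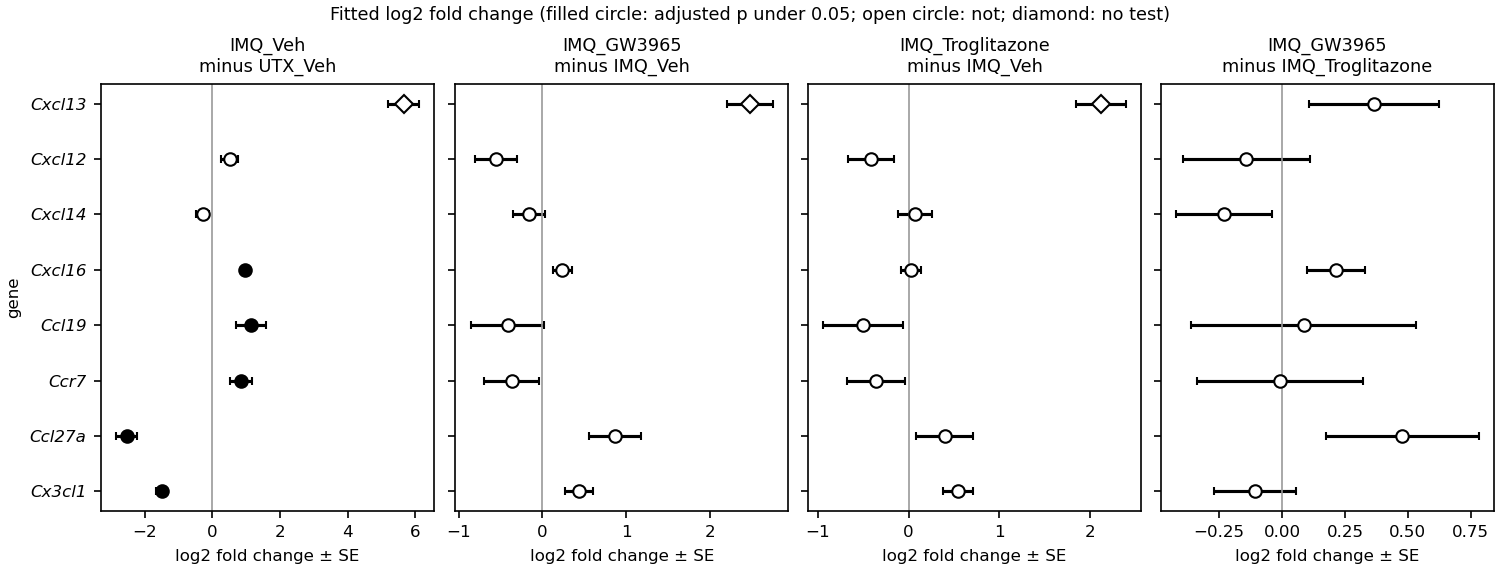
Fitted log2 fold change with its SE for the 8 genes that passed the low-count filter, in each of the 4 contrasts (filled circles, adjusted p under 0.05; open circles, not; diamonds, no test; axes differ between panels). With imiquimod Cxcl16, Ccl19 and Ccr7 lie to the right and Ccl27a and Cx3cl1 to the left, and in the drug contrasts no tested gene is filled.

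On the TPM scale, which divides by transcript length and allows genes to be set against each other, the order of the ligands differed between the groups. In UTX_Veh the highest mean was that of Ccl27a, at 131 ± 8.59 TPM (SD, n = 3), and its lowest library was above the highest library of Cxcl12, the next, at 64.9 ± 13.4 TPM. Cxcl13 was the lowest ligand there, at 0.337 ± 0.169 TPM. In IMQ_Veh Cxcl12 led at 80.7 ± 33.6 TPM, Ccl27a was at 13.7 ± 7.43 TPM and Cxcl13 at 11.8 ± 3.62 TPM, and the last 2 overlapped. With GW3965 Cxcl13 had the highest mean of the 7 ligands, at 64.8 ± 16.2 TPM, above Cxcl12 at 49.6 ± 1.31 TPM, although their ranges touched (49.6 to 81.8 against 48.2 to 50.8 TPM). With troglitazone Cxcl12 stood at 66.5 ± 14.3 TPM and Cxcl13 at 61.6 ± 15.8 TPM, again overlapping. Cxcr5 stayed between 0.0400 and 0.190 TPM in every group mean.

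Of 8 tested further homeostatic ligands, 2 rose with imiquimod and 0 fell, and none was called in the other 3 contrasts, except 1 with troglitazone in the fit without IMQ_Veh replicate 2. The shares called over all tested genes were 61.9% with imiquimod, 6.59% with GW3965, 9.34% with troglitazone and 1.86% between the drugs. Ccl20, the ligand of CCR6, went from 0.545 ± 0.161 to 17.4 ± 16.3 CPM, a log2 fold change of 4.98 (edgeR, Benjamini-Hochberg adjusted p = 0.000240) that was 3.82 without IMQ_Veh replicate 2. Ccl8 went from 13.8 ± 5.32 to 47.4 ± 32.5 CPM (1.77, adjusted p = 0.0229), a call lost without UTX_Veh replicate 2 (1.48), IMQ_Veh replicate 1 (1.41) or IMQ_Veh replicate 3 (1.46), and its difference was -0.18 within the L001 field. Ccl21a, the other CCR7 ligand, stood at 67.9 ± 20.4 CPM in UTX_Veh, 41.5 ± 21.5 in IMQ_Veh, 53.2 ± 14.1 with GW3965 and 46.0 ± 12.2 with troglitazone, and none of its differences passed.

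Some receptors and decoy receptors of these ligands were called in the drug contrasts. Of 13 tested, 2 rose and 2 fell with imiquimod, 2 rose and 1 fell with GW3965, and 1 rose and 2 fell with troglitazone, with none called between the drugs. Over all tested genes 61.9% were called with imiquimod, 6.59% with GW3965, 9.34% with troglitazone and 1.86% between the drugs. The 3 calls with GW3965 became 1 without IMQ_Veh replicate 1 or any IMQ_GW3965 library, and the 3 with troglitazone became 1 without IMQ_Veh replicate 1 or IMQ_Troglitazone replicate 3 and 5 without IMQ_Veh replicate 3. The median log2 fold changes were 0.17, -0.03, -0.05 and 0.03. Cxcr4, the receptor of CXCL12, stood at 2.59, 2.30 and 2.82 CPM in UTX_Veh, 8.98, 5.63 and 10.6 in IMQ_Veh, 4.25, 3.74 and 3.79 with GW3965 and 4.23, 2.81 and 3.32 with troglitazone. Every IMQ_Veh library was above all 9 others. Cxcr4 rose with imiquimod by 1.70 ± 0.24 on the log2 scale (edgeR, Benjamini-Hochberg adjusted p = 0.000101). It fell by 1.09 ± 0.24 with GW3965 (adjusted p = 0.0244) and by 1.27 ± 0.23 with troglitazone (adjusted p = 0.0127).
The Cxcr4 call for GW3965 was lost without IMQ_Veh replicate 1 or any IMQ_GW3965 library (adjusted p from 0.0634 to 0.0921), and that for troglitazone without IMQ_Veh replicate 1 (adjusted p = 0.0537) or IMQ_Troglitazone replicate 3 (adjusted p = 0.0548). Inflammatory monocyte and neutrophil markers moved in the same way as Cxcr4, a receptor that these cells also carry. All 9 tested markers rose with imiquimod, beside 33.0% of all genes. With each drug 5 fell, beside 2.88% (GW3965) and 4.65% (troglitazone) of all genes. The count was 3 without IMQ_Veh replicate 1 for each drug, 2 and 3 without IMQ_GW3965 replicates 1 and 2 for GW3965, and 3 without IMQ_Troglitazone replicate 3 for troglitazone. Their summed level was 22.5 to 42.8 CPM in UTX_Veh, 5859 to 10170 in IMQ_Veh, 296 to 2052 with GW3965 and 404 to 1991 with troglitazone, and its part in the Cxcr4 result was not tested.

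Ackr2, a decoy receptor that removes inflammatory CC chemokines, stood at 11.2, 13.2 and 12.4 CPM in UTX_Veh, 4.15, 4.30 and 6.30 in IMQ_Veh, 12.3, 9.98 and 11.1 with GW3965 and 11, 11.01 and 14.6 with troglitazone. Every IMQ_Veh library was below all 9 others, and the drug groups overlapped UTX_Veh. Ackr2 fell by 1.32 ± 0.18 with imiquimod on the log2 scale (edgeR, Benjamini-Hochberg adjusted p = 9.47e-05). It rose by 1.18 ± 0.19 with GW3965 (adjusted p = 0.00854) and by 1.32 ± 0.18 with troglitazone (adjusted p = 0.00676), and all 3 calls held without any 1 library. When each drug was fitted with IMQ_Veh alone, the Ackr2 differences were 1.19 (adjusted p = 0.0679) and 1.32 (adjusted p = 0.0934).
Ackr4, the decoy receptor for CCL19 and CCL21, went from 47.4 ± 4.58 CPM in UTX_Veh to 8.502 ± 2.31 in IMQ_Veh and stood at 15.7 ± 0.875 with GW3965 and 13.2 ± 3.82 with troglitazone. It fell by 2.48 with imiquimod (edgeR, adjusted p = 4.49e-06) and rose by 0.89 ± 0.22 with GW3965 (adjusted p = 0.0344). The GW3965 call was lost in 9 of the 12 fits without 1 library, all but those without IMQ_Veh replicate 3 and IMQ_Troglitazone replicates 2 and 3, with adjusted p from 0.0501 to 0.126. Within the L001 and L009 fields the drug differences were 1.34 and 0.90 (GW3965) and 1.46 and 1.03 (troglitazone) for Ackr2, and -0.44 and -1.27, and -0.53 and -1.63, for Cxcr4.

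**Figure D3:**
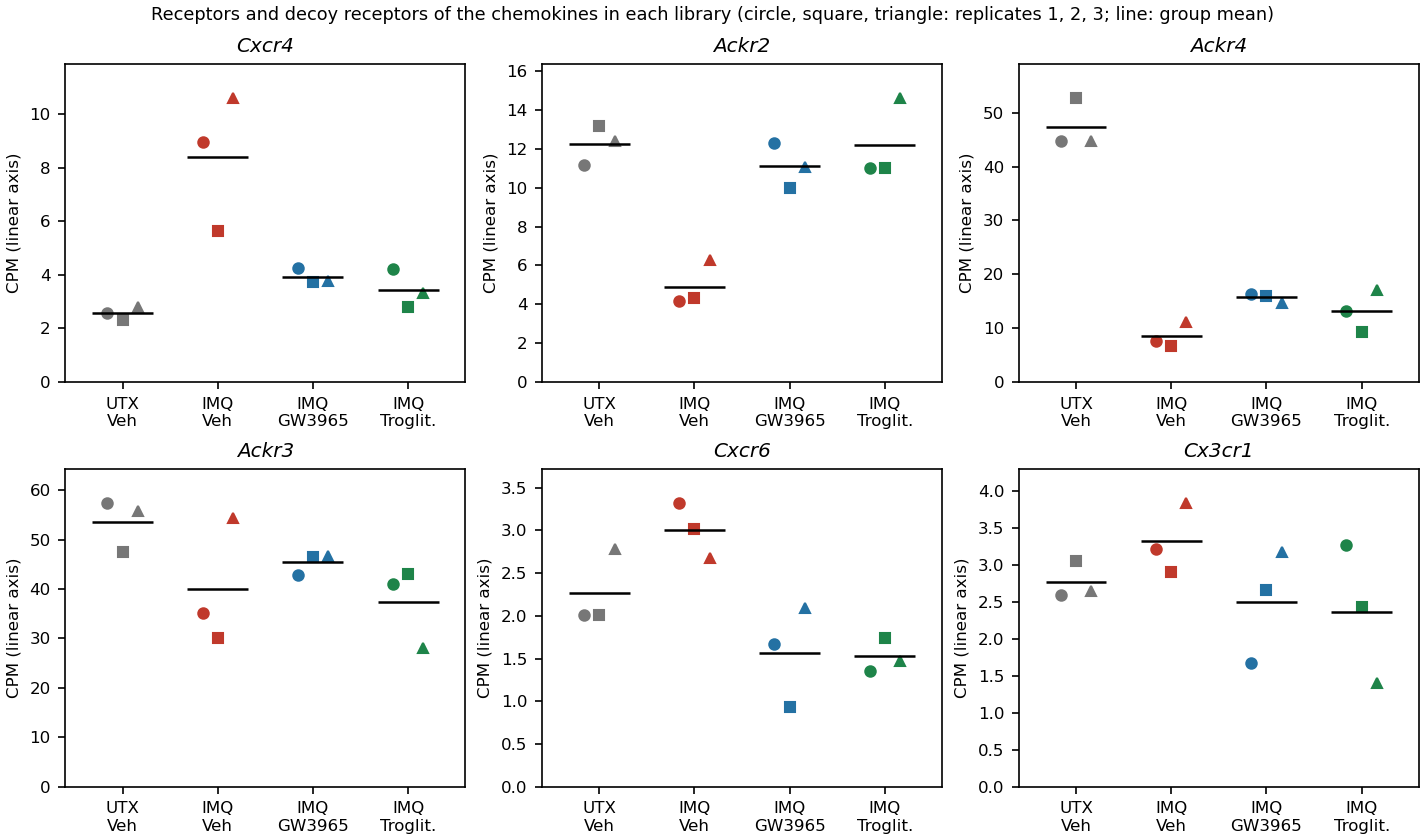
CPM of 6 receptors and decoy receptors in each of the 12 libraries by group, on linear axes, with the group mean as a line. Cxcr4 is high only in the IMQ_Veh libraries (5.63 to 10.6 CPM) and Ackr2 is low only there (4.15 to 6.30 CPM).

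Cxcr6, the receptor of CXCL16, stood at 2.01, 2.01 and 2.78 CPM in UTX_Veh, 3.32, 3.02 and 2.68 in IMQ_Veh, 1.67, 0.935 and 2.10 with GW3965 and 1.35, 1.75 and 1.48 with troglitazone. All 6 drug libraries were below all IMQ_Veh libraries. Cxcr6 fell with troglitazone by 0.98 on the log2 scale (edgeR, adjusted p = 0.0461), a call lost in 9 of the 12 fits without 1 library, all but those without IMQ_Veh replicate 3 and IMQ_GW3965 replicates 2 and 3 (adjusted p from 0.0573 to 0.152). With GW3965 the Cxcr6 difference was -0.95 (adjusted p = 0.0609). Ackr3, Cx3cr1, Ccr10 and Cxcr3, which bind CXCL12, CX3CL1, CCL27 and the interferon-induced CXC chemokines, passed in no contrast.

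Of 9 proteases that shed or trim these ligands, 4 rose and 1 fell with imiquimod, beside 61.9% of all genes called (33.0% higher and 28.9% lower), and the 5 calls were 3 without IMQ_Veh replicate 1. None was called in the drug contrasts, but without IMQ_Veh replicate 3 there were 3 with each drug, and without IMQ_Veh replicate 2 there was 1 with each. Adam10 and Adam17, which shed CX3CL1 and CXCL16, reached 109 ± 16.4 CPM (67.3 ± 2.95 in UTX_Veh) and 102 ± 6.52 CPM (75.6 ± 3.14 in UTX_Veh) with imiquimod (log2 fold changes 0.69 and 0.43, edgeR, adjusted p = 0.000286 and 0.00135). Dpp4, which trims CXCL12, went from 8.14 ± 1.15 to 27.2 ± 11.1 CPM (1.74, adjusted p = 0.000164).

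The lymphotoxin and non-canonical NF-κB pathway drives Cxcl13 and Ccl19 in lymphoid organs. Of its 18 listed genes 16 were tested, and 7 rose and 3 fell with imiquimod, 3 fell with GW3965 and 1 fell with troglitazone, with none called between the drugs. The 10 calls with imiquimod are a share close to the 61.9% over all genes. Over all genes 2.88% were called lower with GW3965 and 4.65% with troglitazone. The 3 calls with GW3965 became 0 without IMQ_Veh replicate 1 or IMQ_GW3965 replicate 1 and 1 without IMQ_GW3965 replicate 2 or 3. The median log2 fold changes were 0.37, -0.27, -0.24 and -0.07. Ltbr, the lymphotoxin receptor, went from 56.6 ± 5.08 to 83.7 ± 17.5 CPM with imiquimod (0.56, edgeR, Benjamini-Hochberg adjusted p = 0.00456), and Tnfsf14, its ligand LIGHT, from 0.287 ± 0.0579 to 1.59 ± 0.354 CPM (2.44, adjusted p = 0.000688). Tnfsf11, which encodes RANKL, went from 0.122 ± 0.0776 to 1.02 ± 0.935 CPM (2.97, adjusted p = 0.00595), or 1.91 without IMQ_Veh replicate 3.
In the drug contrasts none of the 16 was called higher, beside 3.71% of all genes with GW3965 and 4.69% with troglitazone, and the part of this pathway in the Cxcl13 values was not tested. Tnfsf14 stood at 1.45, 1.33 and 1.99 CPM in IMQ_Veh, 0.588, 0.260 and 0.270 with GW3965 and 0.719, 1.02 and 0.287 with troglitazone. It fell by 2.03 on the log2 scale with GW3965 (edgeR, adjusted p = 0.0268), a call lost without IMQ_Veh replicate 1 or any IMQ_GW3965 library (adjusted p from 0.0652 to 0.0816). Map3k14, the pathway kinase NIK, fell by 0.85 with GW3965 (adjusted p = 0.0191), a call lost without IMQ_Veh replicate 1, IMQ_GW3965 replicate 1 or IMQ_GW3965 replicate 3 (adjusted p from 0.0522 to 0.0857). Cd40 fell by 1.02 with GW3965 (adjusted p = 0.0310) and by 0.84 with troglitazone (adjusted p = 0.0440). The GW3965 call of Cd40 was lost without UTX_Veh replicate 1, IMQ_Veh replicate 1 or any IMQ_GW3965 library (adjusted p from 0.0520 to 0.126) and the troglitazone call in all 12 fits without 1 library (adjusted p from 0.05002 to 0.159). Ltb stood at 1.17 ± 0.414 CPM in UTX_Veh, 1.62 ± 0.353 in IMQ_Veh, 0.827 ± 0.222 with GW3965 and 0.759 ± 0.476 with troglitazone and did not pass, and Lta was below the filter at 0.0949 to 0.496 CPM.

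CXCL13 attracts B cells, and most of their markers were near the floor here, while Ighm and Sdc1 were not. Beside the counts below, 61.9% of all tested genes were called with imiquimod (33.0% higher and 28.9% lower), 6.59% with GW3965 and 9.34% with troglitazone. Of 15 B and plasma cell markers, 5 passed the filter, and 4 of these rose with imiquimod. None was called in the other contrasts, except 1 with troglitazone in the fit without IMQ_Veh replicate 3, and the median log2 fold change of the 5 was 0.01 with GW3965 and -0.37 with troglitazone. Cd79b, a part of the B cell receptor, went from 0.261 ± 0.0467 to 1.06 ± 0.627 CPM (log2 fold change 1.99, edgeR, Benjamini-Hochberg adjusted p = 0.00221). Ighm was tested and not called, and its IMQ_Veh libraries lay both below and above the range of UTX_Veh. Ms4a1 (CD20) and Cd79a, which B cells also carry, were below the filter, at group means of 0.0141 to 0.0452 and 0.0274 to 0.188 CPM. Near this floor the means of Cd79a and Fcer2a were lower in IMQ_Veh than in UTX_Veh, and that of Cd22 was higher. The B cell markers thus did not all move in the direction of Cd79b. Cr2 had no count in IMQ_Veh, Pax5, Fcer2a, Cr2 and Jchain had none with GW3965, and Pax5 and Mzb1 had none with troglitazone.
The summed level of the B cell list was 342 to 364 CPM in UTX_Veh, 628 to 912 in IMQ_Veh, 563 to 739 with GW3965 and 538 to 695 with troglitazone. Sdc1, which keratinocytes also express, made up most of it, at 338 ± 14.6 CPM in UTX_Veh and 756 ± 152 in IMQ_Veh. Of 7 follicular helper T cell markers 4 were tested. With imiquimod 1 rose (Icos, log2 fold change 1.27, edgeR, adjusted p = 0.0278, lost in 3 of the 12 fits without 1 library). Bcl6, the lineage factor, fell (-1.05, adjusted p = 1.6e-05). In UTX_Veh it stood at 96.3, 100 and 108 CPM, beside 1.61, 0.627 and 1.97 CPM of Icos and a list sum of 99.5 to 112 CPM. Bcl6 thus made up most of that sum, and which cells of the skin gave its reads was not tested. Only 1 of the markers was called with imiquimod without UTX_Veh replicate 1 or 2 or IMQ_Veh replicate 1. With GW3965 1 was called only without IMQ_Veh replicate 3. Bcl6 rose with troglitazone (0.41, adjusted p = 0.0435, lost in 9 of the 12 fits). Il21 had no count in any library. Of 10 tested T cell markers 1 rose and 5 fell with imiquimod, with none called in the drug contrasts except 1 with troglitazone without IMQ_Veh replicate 2, IMQ_Veh replicate 3 or IMQ_Troglitazone replicate 1, and their summed level was 55.2 to 70.4 CPM in UTX_Veh, 38.8 to 50.0 in IMQ_Veh, 35.2 to 45.0 with GW3965 and 37.3 to 40.3 with troglitazone. Among 7 tested markers of lymphoid stroma and high endothelium 2 rose and 2 fell with imiquimod (2 called without UTX_Veh replicate 2) and Clu, which encodes clusterin, rose with GW3965 (0.91, adjusted p = 0.0159, lost without IMQ_Veh replicate 1 or IMQ_GW3965 replicate 1) and troglitazone (1.04, adjusted p = 0.00948), and Madcam1, Glycam1 and Chst4, which define high endothelial venules, stayed at group means of 0 to 0.0581 CPM.

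Macrophages are another known source of CXCL13. Beside the marker counts below, 61.9% of all tested genes were called with imiquimod (33.0% higher and 28.9% lower). The shares were 6.59% with GW3965, 9.34% with troglitazone and 1.86% between the drugs. Calls in either direction with imiquimod were near the share over all genes for the macrophage and keratinocyte lists. Of 13 resident macrophage markers 8 rose and 1 fell with imiquimod, none was called with GW3965, and only Lyve1, which lymphatic endothelium shares, rose with troglitazone (1.10, edgeR, adjusted p = 0.0137), a call lost without IMQ_Veh replicate 1 or IMQ_Troglitazone replicate 3 (adjusted p = 0.0575 and 0.0596). Without IMQ_Veh replicate 3 the counts were 4 with GW3965 and 6 with troglitazone, and without IMQ_Troglitazone replicate 2 that for troglitazone was 2. The median log2 fold change of the list was 0.41 with GW3965 and 0.43 with troglitazone. The summed level was 355 to 478 CPM in UTX_Veh, 435 to 1063 in IMQ_Veh, 724 to 988 with GW3965 and 880 to 1119 with troglitazone. Within IMQ_Veh replicates 1, 2 and 3 it was 769, 435 and 1063 CPM, beside 13.0, 6.35 and 8.76 CPM of Cxcl13. Marco, a scavenger receptor of macrophages, stood at 0.432, 0.376 and 0.427 CPM in UTX_Veh, 9.60, 6.19 and 11.4 in IMQ_Veh, 6.83, 14.4 and 12.4 with GW3965 and 9.14, 10.6 and 8.91 with troglitazone. Marco rose with imiquimod by 4.44 ± 0.35 on the log2 scale (edgeR, adjusted p = 2.50e-06), and its drug groups overlapped IMQ_Veh. Of 10 keratinocyte markers 6 rose and 1 fell with imiquimod, 3 rose with GW3965, and 1 rose and 1 fell with troglitazone, and their sum was 22340 to 26130 CPM in UTX_Veh and 50680 to 77120 in the other groups. The keratinocyte count for GW3965 was 0 without IMQ_GW3965 replicate 1 or 2 and 1 without IMQ_GW3965 replicate 3 or IMQ_Veh replicate 1. That for troglitazone was 5 without IMQ_Veh replicate 3, 1 without IMQ_Troglitazone replicate 1, and 0 without IMQ_Veh replicate 1 or IMQ_Troglitazone replicate 3. Of 10 fibroblast markers 3 fell with imiquimod (1 called without UTX_Veh replicate 3 and 5 without IMQ_Veh replicate 3) and none was called with either drug. Without IMQ_Veh replicate 3, 2 fibroblast markers were called with GW3965 and 4 with troglitazone, and without IMQ_Veh replicate 2 the counts were 2 and 1. Of 10 endothelial markers 3 fell with imiquimod (8 called without IMQ_Veh replicate 3), none was called with GW3965 (5 without that library) and 2 rose with troglitazone (10 called without that library, 0 without IMQ_Veh replicate 1 or IMQ_Troglitazone replicate 3). Of 10 muscle markers all 10 fell with imiquimod, and 3 rose with GW3965 and 0 with troglitazone. Without IMQ_Veh replicate 3 all 10 muscle markers were called with each drug and 4 between the drugs. The 3 GW3965 calls became 0 without IMQ_Veh replicate 1 or 2 or IMQ_GW3965 replicate 1 or 2, and 1 without UTX_Veh replicate 1 or IMQ_GW3965 replicate 3. The part of macrophage, keratinocyte or stromal transcripts in the Cxcl13 values was not tested.

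**Figure D4:**
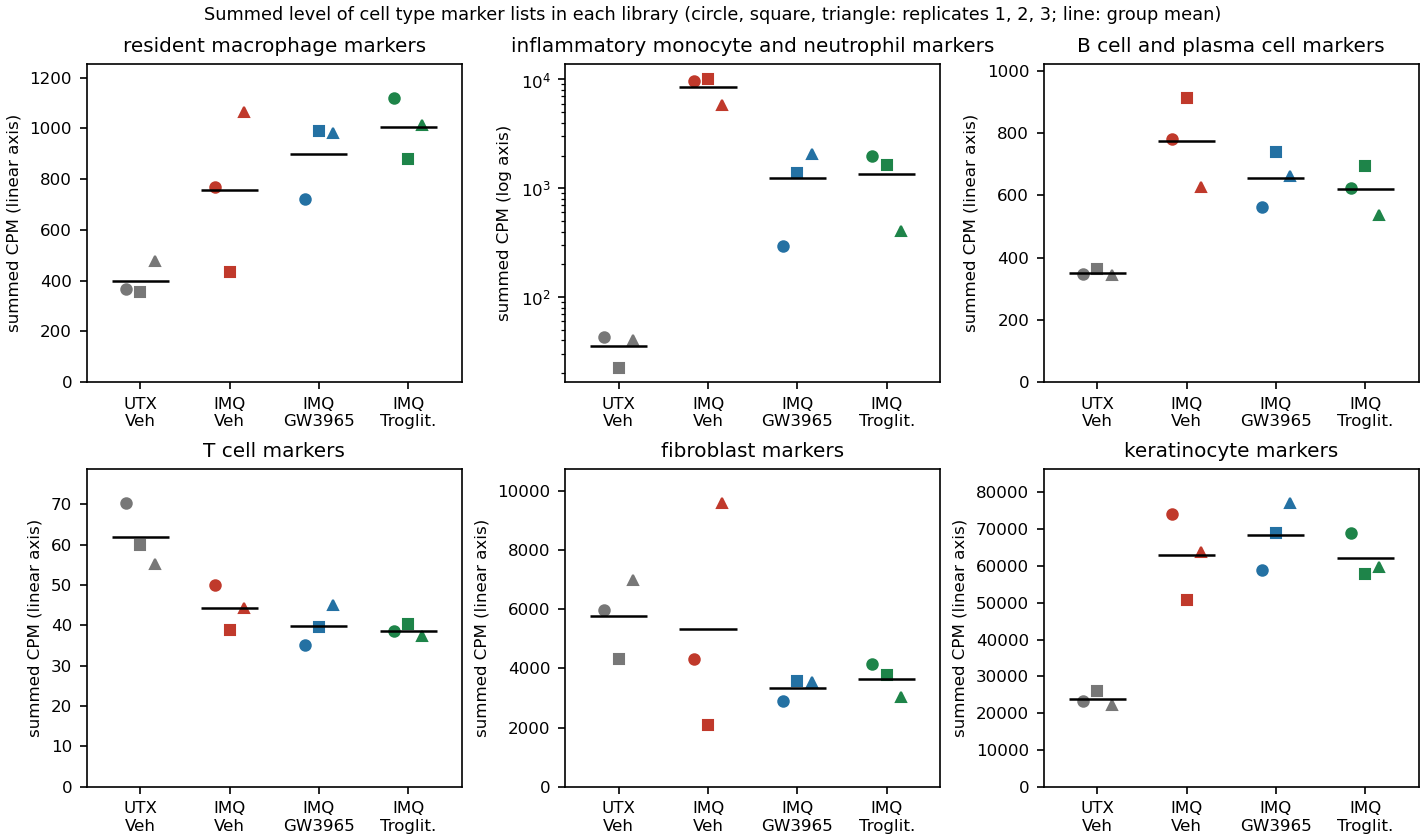
Summed CPM of 6 cell type marker lists in each library by group, with the group mean as a line (monocyte and neutrophil markers on a log axis, the others linear). The monocyte and neutrophil sum is highest in IMQ_Veh (5859 to 10170 CPM) and lower with both drugs, the macrophage sum is 880 to 1119 CPM with troglitazone, and the B cell panel is mostly Sdc1.

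Of the named genes compared, Spink7 had the profile nearest to that of Cxcl13. Likeness was measured as the root mean square difference of log2(CPM + 0.5), each gene taken relative to its own mean, over the 12 libraries. It covered 13623 genes with a mean level of 1 CPM or more. Genes with only a Gm number, Rik or clone name, pseudogene suffix or bare identifier were left out. The result is a description of a pattern for which Cxcl13 was chosen. The median difference over the genes compared was 2.50. The smallest was that of Spink7, a serine protease inhibitor, at 0.69, with 0.106 ± 0.148 CPM in UTX_Veh, 22.5 ± 13.8 in IMQ_Veh, 43.9 ± 6.75 with GW3965 and 35.7 ± 11.1 with troglitazone. Slc13a3 (1.004), Krt1 (1.10), Il1f6 (1.15), Tcf23 (1.16) and Lce3c (1.2) came next. Krt1 and Lce3c belong to the differentiating epidermis and Il1f6 encodes the cytokine IL-36α. The 12 libraries share the imiquimod contrast, in which all 6 genes had higher means. Unlike Cxcl13, the last 3 had lower means with both drugs than in IMQ_Veh, for instance 172 ± 42.5, 128 ± 18.2 and 99.2 ± 21.5 CPM for Lce3c. The other chemokine genes lay between 2.07 (Cxcl16) and 3.28 (Ccl27a) from Cxcl13.

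**Figure D5:**
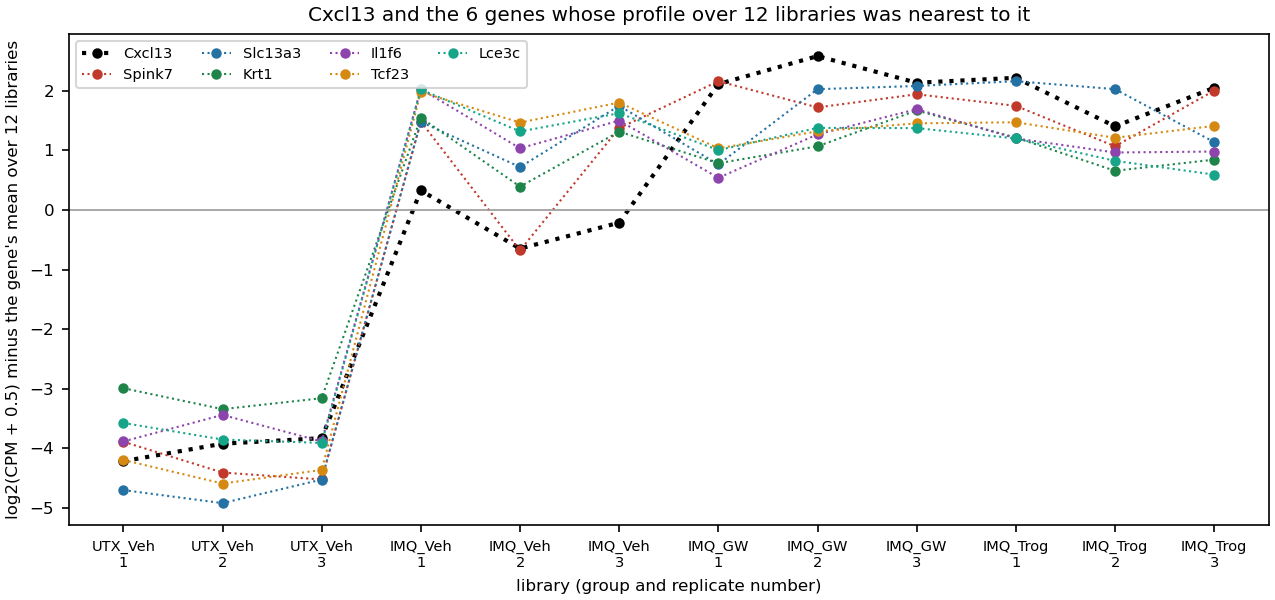
log2(CPM + 0.5) minus the gene's own mean over the 12 libraries, by library, for Cxcl13 (black) and the 6 genes nearest to it among those compared. Dotted lines only join the points of a gene. All 7 genes are lower in every UTX_Veh library than in any library with imiquimod, and Cxcl13 is higher in every drug library than in any IMQ_Veh library.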

How the data were processed

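Bulk mRNA of mouse ear skin was sequenced as 12 libraries, 3 in each of 4 groups. Per the submitters' processing notes the reads were handled with FastQC, Trim Galore, STAR 2.7.3a and RSEM 1.3.3 on GRCm38 (mm10); neither the annotation release nor the strand setting is known here. For each library the authors deposited the RSEM gene-level output. The expected counts deposited by the authors are RSEM's estimates of reads per gene, not scaled for depth, in which reads that fit several genes are divided among them, and 9.58% of values were not whole. The TPM values deposited by the authors are scaled for transcript length and depth within a library.

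Symbols and positions came from GENCODE M21 (GRCm38), which matched 52083 identifiers and left 3333 unmatched. Expected counts were rounded and fitted in R 4.3.3 with edgeR 4.0.16: filterByExpr by group, TMM scaling, and glmQLFit with glmQLFTest on all 12 libraries in 1 fit with 8 residual degrees of freedom. This tested 17130 genes, and Benjamini-Hochberg adjusted p-values over all of them were called under 0.05. SE is the log2 fold change divided by the root of the F statistic, and intervals are 95% intervals from it. On simulated counts for GW3965 against IMQ_Veh over 16466 genes, 72.0% of 2-fold and 99.0% of 4-fold changes were recovered. The simulation gave every gene the same dispersion, changed only genes above a minimum mean count and held no outlying library. These shares are thus not the recovery to be expected in the real contrast, and they do not cover low genes. No group was formed from measured values, and libraries of a group differed by more than sampling noise (lowest chi-square per degree of freedom 7.79). Alternatives were DESeq2 1.42.0, limma-voom (limma 3.58.1), scaling by RLE or by the upper quartile, 2 other filters, fits of only 2 groups, a replicate block, the L001 or L009 field as covariate, both, fits without ENSMUSG00000119584 or without IMQ_Veh replicate 3 and IMQ_GW3965 replicate 3, and leaving out each library.

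The genes, the 16 further gene lists (187 of 189 symbols matched) and the tests were chosen with earlier results of these data known. The text names all 9 genes and fixed genes of the lists. A gene of the B cell list is not reported here by name. It also names up to 3 called list members per contrast with the largest fold and at least 1 CPM, and the 6 genes nearest to Cxcl13. Ccl8, Adam17, Tnfsf11, Cd40, Map3k14, Sdc1, Ighm, Icos, Cd36, Apoe and the markers without counts were named with their values seen. Further fibroblast, endothelial, muscle, keratinocyte and drug check genes were measured and are given only as sums or counts. Promoters came from RefSeq on GRCm38.p6.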

Additional observations from a re-analysis of the deposited data

Results flagged for a closer look

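A pair of drug check genes differed between IMQ_GW3965 and IMQ_Troglitazone in a direct test of that difference. Srebf1, an LXR target, was higher with GW3965 by 0.66 on the log2 scale (308 ± 41.3 against 194 ± 23.5 CPM, SD, n = 3, edgeR, Benjamini-Hochberg adjusted p = 0.0436). Apoe, another LXR target, was higher by 0.50. Both calls were lost in 10 of the 12 fits that left out 1 library, all but those without IMQ_Veh replicate 2 or 3. Across these fits the difference of Srebf1 lay between 0.55 and 0.76 and that of Apoe between 0.41 and 0.57. None of the 8 chemokine genes tested passed that test.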

How the results depend on the processing

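The number of genes called depended on the setting. For GW3965 against IMQ_Veh the count of 1129 became 2222 with DESeq2, 102 with only the 2 groups, 549 with the L001/L009 field and 3041 without IMQ_Veh replicate 3 and IMQ_GW3965 replicate 3 together, and ran from 105 to 3645 over fits without 1 library. For troglitazone 1600 became 2590, 0, 1009 and 4166 in those settings, 991 with block and L001/L009 field together, and 162 to 4460 without 1 library. Between the drugs 319 became 942 with DESeq2, 140 with no filter, 9 with only the 2 groups, 26 with block and L001/L009 field, 0 without those 2 libraries, and 0 to 692 without 1 library. For imiquimod the count ran from 9342 to 11280. With the replicate number as a block the counts were 10722, 1426, 1715 and 131. Deviations of same-numbered libraries correlated between -0.221 and 0.312 (18 pairs, 4 over 0.1, median 0.0405). Those of differently numbered libraries correlated between -0.298 and 0.347 (36 pairs, median -0.003). With 3 libraries per group, these correlations cannot decide whether equal numbers mark a shared source, which the labels do not state.

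Chemokine genes called with imiquimod (5 of 7) were 3 under upper-quartile scaling or the L001/L009 field, 4 with the replicate block and 3 to 5 without 1 library. With GW3965 (0) they were 2 without those 2 libraries and 0 to 1 without 1. With troglitazone (0) they were 1 with DESeq2, 2 without those 2 libraries and 0 to 2 without 1. Signs turned only in differences that were not called, of which Ccl19 between the drugs turned furthest, from 0.09. Leaving out 1 library, Cxcl14 ran from -0.3162 to 0.0062 for GW3965 and from -0.0676 to 0.2458 for troglitazone, Cxcl16 from -0.0232 to 0.0873 for troglitazone, and between the drugs Ccl19 from -0.4112 to 0.5204 and Ccr7 from -0.2179 to 0.2241. Between the drugs Ccl19 was also -0.4087 without those 2 libraries, and Ccr7 was 0.0091 under upper-quartile scaling, 0.0028 with the block and 0.0010 with block and L001/L009 field. Depth limits Cxcr5, at 1 to 5 counts. The causes were not tested.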
